A study of Mus musculus with 9 samples.

Results

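The 10 genes described here encode antioxidant enzymes and metallothioneins of the mouse and were taken by symbol (Gpx1, Gpx3, Gpx7, Gpx8, Mt1, Mt2, Hmox1, Nqo1, Sod3 and Gclc) from the 24453 genes of a bulk RNA sequencing experiment. Each was measured in 9 libraries, 3 each of normal hepatic stellate cells (HSCs), CCl4-fib and NASH-fib, and all mice were on a C57BL/6J background. HSCs were isolated by density gradient from healthy livers of wild-type mice. CCl4-fib and NASH-fib were the CD45-, GFP-positive cells sorted from fibrotic livers of mice in which a Col1a2 promoter drives GFP, so that both are collagen-expressing liver cells. For CCl4-fib, Col1a2-GFP transgenic mice received carbon tetrachloride (CCl4), a hepatotoxin, 2 times per week for 8 weeks. For NASH-fib, MC-COL mice, which carry the same transgene and lack the melanocortin 4 receptor (MC4R-KO), were males of 8 weeks when a Western diet (WD) was started, and the diet lasted 20 weeks. The ages of the other mice are not given in the sources used here. Each library pooled cells of 3 to 5 mice, so the p-values below measure the spread between these pools. HSCs differed from both fibroblast groups in the transgene and in the isolation as well as in the disease. They also differed from CCl4-fib in the carbon tetrachloride injections, and from NASH-fib in the MC4R genotype and the Western diet. NASH-fib differed from CCl4-fib in the carbon tetrachloride injections, genotype, diet and duration together. Within each comparison these cannot be told apart.

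Glutathione peroxidases reduce hydrogen peroxide or lipid hydroperoxides with glutathione or another thiol as the electron donor, and glutathione itself is made in a first, rate-limiting step by glutamate-cysteine ligase. Superoxide dismutases make the hydrogen peroxide from superoxide, heme oxygenase degrades heme, and metallothioneins are small cysteine-rich proteins that bind zinc, copper and cadmium. In the liver, carbon tetrachloride and lipid overload are both known sources of oxidative stress, and 2 transcription factors are known for the response, NRF2, which acts on Nqo1, Gclc and Hmox1 through antioxidant response elements, and MTF1, which acts on Mt1 and Mt2 through metal response elements.

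The measure is the deposited value, a read count on the exons of a gene multiplied by 1 factor per library, and the recovered counts ranged from 3071070 to 5634273 reads on genes per library. Values of several markers of other cells moved with the groups. The summed value of 15 hepatocyte markers was 32333 to 70402 in HSCs, 2482 to 3754 in CCl4-fib and 8738 to 37702 in NASH-fib, and each of the 15 had over 3 reads in every library. The 12 macrophage markers summed to 5402 to 18636, 482 to 956 and 3062 to 6711, with Clec4f, Marco, Timd4 or Vsig4 at 0 in single fibroblast libraries, although the gate was CD45-. The sums of 10 sinusoidal endothelial markers were 7907 to 16944, 298 to 310 and 1201 to 3928 in the same order of groups, those of 7 mesothelial markers 613 to 1002, 16177 to 22367 and 25265 to 31917, and those of 8 cholangiocyte markers 63.1 to 226, 3475 to 4755 and 5980 to 11610. Those of 9 neutrophil markers were 50.2 to 1059, 5.55 to 78.2 and 608 to 6430, with NASH-fib replicate 2 the highest, which was also the highest NASH-fib library for Gpx3, Mt1, Mt2 and Sod3. The 10 activated fibroblast markers, collagen genes among them, summed to 8080 to 13860 in HSCs, 57907 to 67467 in CCl4-fib and 36168 to 41284 in NASH-fib, and the 12 markers of quiescent stellate cells to 60114 to 65723, 16239 to 18196 and 15429 to 20003, so the labelled cell types carried their defining markers. In bulk samples fewer cells of a type and less RNA per cell cannot be told apart, and the part of these cells in the results below was not tested.

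Promoters are shown for the genes that stood out most in CCl4-fib, the metallothionein pair, which moved together, and Gpx3 and Gpx7. Promoters from RefSeq (GRCm38.p6) were matched for 7 of the 10 genes, and those of Hmox1, Sod3 and Gclc were not analysed here. The sequences are the 250 bases before the start of each gene, 5′ to 3′ on the strand of the gene, and capitals mark matches to the core of the metal response element, TGCACNC or TGCGCNC, on either strand. Mt2 lies at chr8:94172368-94172617 (plus strand), Mt1 at chr8:94178839-94179088 (plus), Gpx3 at chr11:54902604-54902853 (plus) and Gpx7 at chr4:108406714-108406963 (minus).
Mt2: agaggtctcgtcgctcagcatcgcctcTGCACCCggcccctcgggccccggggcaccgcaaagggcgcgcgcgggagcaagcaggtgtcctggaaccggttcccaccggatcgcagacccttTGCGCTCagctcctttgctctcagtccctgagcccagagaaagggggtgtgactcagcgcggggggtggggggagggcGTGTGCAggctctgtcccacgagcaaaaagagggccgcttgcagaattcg
Mt1: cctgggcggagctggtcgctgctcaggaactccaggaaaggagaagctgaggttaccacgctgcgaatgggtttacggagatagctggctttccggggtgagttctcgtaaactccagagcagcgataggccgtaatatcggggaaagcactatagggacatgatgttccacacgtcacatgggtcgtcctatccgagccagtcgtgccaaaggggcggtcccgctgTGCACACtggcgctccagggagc
Gpx3: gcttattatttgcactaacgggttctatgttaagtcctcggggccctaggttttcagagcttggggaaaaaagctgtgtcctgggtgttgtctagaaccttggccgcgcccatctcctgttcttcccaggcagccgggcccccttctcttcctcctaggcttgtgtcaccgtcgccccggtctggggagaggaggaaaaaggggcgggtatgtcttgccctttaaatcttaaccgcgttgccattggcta
Gpx7: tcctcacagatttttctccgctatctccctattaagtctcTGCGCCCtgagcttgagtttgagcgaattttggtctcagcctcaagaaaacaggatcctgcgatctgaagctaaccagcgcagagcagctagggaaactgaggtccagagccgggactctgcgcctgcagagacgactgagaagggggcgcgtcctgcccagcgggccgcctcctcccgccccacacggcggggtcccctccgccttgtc

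With 50 bases after the start added to the search, the Mt2 promoter held 4 matches, at 223, 128 and 50 bases before the start and 5 bases after it. Mt1 held 3, at 23 bases before and 3 and 21 bases after the start. The start is that of the gene model, and sequence beyond the 50 bases was not searched, so these counts hold for this window only. Gpx7 held 1, at 210 bases before the start, and Gpx1, Gpx3, Gpx8 and Nqo1 held none. Of 32851 promoters of the same length, 25.7% held at least 1 match, 1.97% at least 3 and 0.517% at least 4, so the single match of Gpx7 is common and the counts of the metallothioneins are not. The antioxidant response element, TGACNNNGC, had 1 match among the 7 promoters, in Mt2 at 79 bases before the start, and 12.4% of all promoters held at least 1. A match is a description of the letters and not a site shown to be bound.

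A gene was called when its log2 fold change, on the log2(value + 1) scale, was at least 1 in size and its Benjamini-Hochberg adjusted p from limma, over 13651 genes in 1 fit of the 9 libraries, was under 0.05. All 10 genes passed the filter on low counts. In CCl4-fib against HSCs, 4 of the 10 were called higher (Gpx3, Gpx7, Mt1 and Mt2) and 2 lower (Sod3 and Gclc), where 27.8% of all genes tested passed, 16.2% upward and 11.7% downward. In NASH-fib against HSCs none was called higher by limma (1, Gpx3, by edgeR and by DESeq2) and Hmox1 and Sod3 were called lower, 4 of the 10 having an unadjusted p under 0.05, where 12.5% of all genes passed, 8.23% upward and 4.30% downward. In NASH-fib against CCl4-fib, Gclc was called higher and Gpx3, Gpx7 and Mt1 lower, where 10.6% of all genes passed, 4.97% upward and 5.66% downward. The median log2 fold change of the 10 was 0.65 in CCl4-fib against HSCs, -0.05 in NASH-fib against HSCs and -1.31 in NASH-fib against CCl4-fib, beside 0.18, -0.02 and -0.11 over all genes tested. Most of the 10 are short, and short genes had other medians. Tested genes under 1000 exonic bases had 0.63 in CCl4-fib against HSCs, and those from 1000 to under 2000 had 0.52. In NASH-fib against CCl4-fib these medians were -0.44 and -0.45. The part of length in the medians of the 10 was not tested. The comparisons share libraries, so they are not independent of each other.

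**Figure D1:**
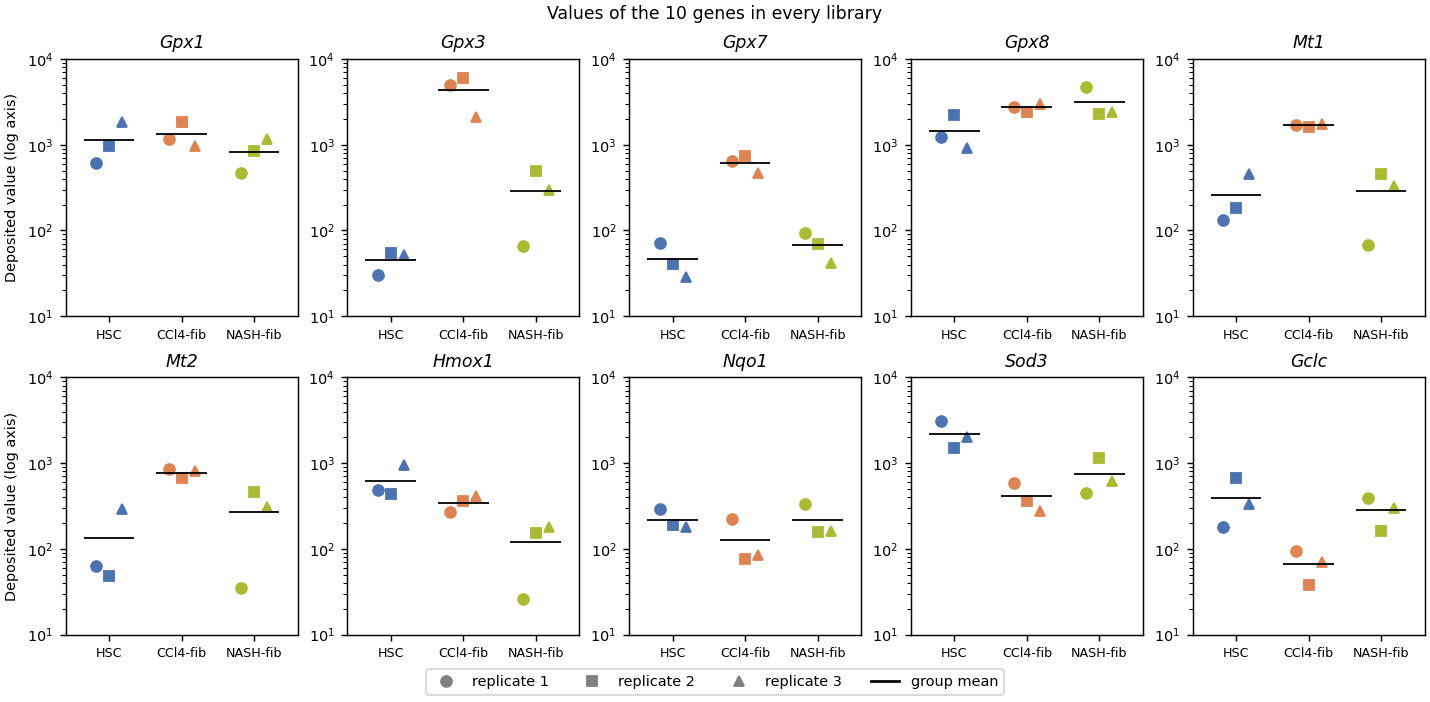
Deposited value (log axis) of each of the 10 genes in every library, 1 panel per gene, with 1 point per library and a bar at the group mean. The CCl4-fib libraries stand above all others for Gpx3, Gpx7, Mt1 and Mt2 and below all others for Gclc, and Hmox1 is lowest in NASH-fib.

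The groups did not overlap for most of the genes in CCl4-fib against HSCs: 5 of the 10 had every CCl4-fib library above every HSC library (the 4 called higher and Gpx8) and 3 had every one below (Hmox1, Sod3 and Gclc), where 27.8% and 20.9% of all genes tested (48.6% in all) were apart in these directions. In NASH-fib against HSCs, Gpx3 and Gpx8 were apart above and Hmox1 and Sod3 below, against 12.7% and 11.6% of all genes (24.4% in all). In NASH-fib against CCl4-fib, Gclc was apart above and 5 genes below (Gpx3, Gpx7, Mt1, Mt2 and Hmox1), against 17.1% and 22.0% of all genes (39.1% in all).

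**Figure D2:**
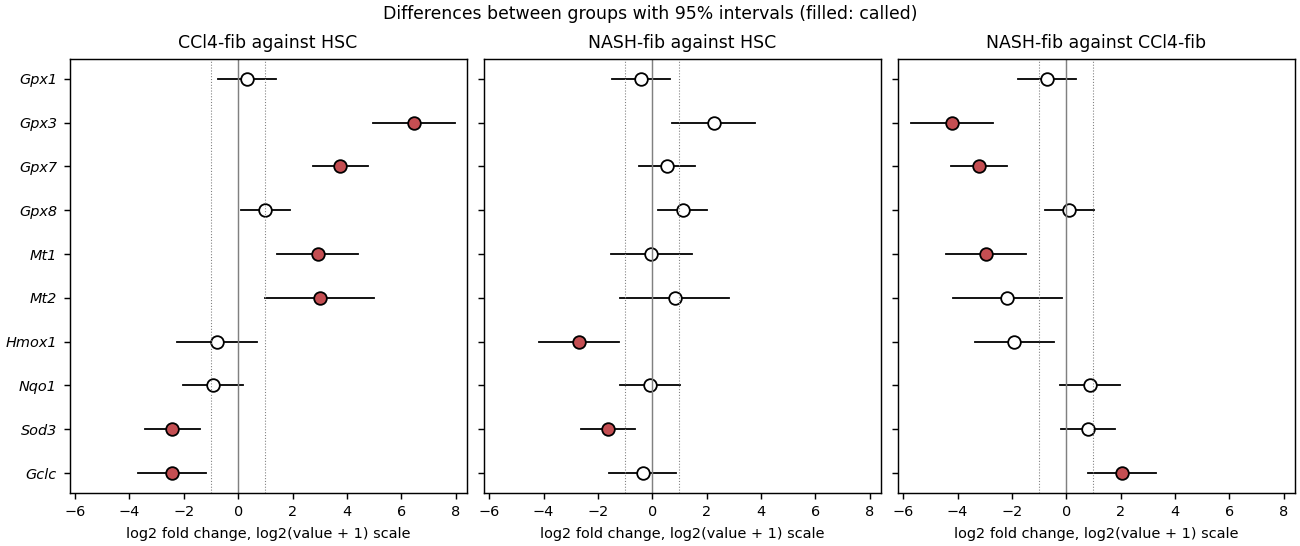
Log2 fold change of each gene on the log2(value + 1) scale, with its 95% confidence interval from limma, in 1 panel per comparison; filled points were called. Gpx3 has the longest displacement in CCl4-fib against HSCs (6.47) and in NASH-fib against CCl4-fib (-4.21), and in NASH-fib against HSCs the called genes are Hmox1 (-2.69) and Sod3 (-1.62).

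Gpx3 encodes the secreted plasma glutathione peroxidase, a selenoprotein (NM_008161, mm10 chr11:54902854-54910382, plus strand, exonic length 1510 bases). Its value was 30.4, 53.9 and 51.4 in HSC replicates 1 to 3, whereas the CCl4-fib libraries had 5046, 5983 and 2082 and the NASH-fib libraries 66.6, 499 and 295. Every CCl4-fib library was thus above every other library, and the lowest NASH-fib library, replicate 1, was close to the HSCs while the other two were not. Gpx3 was 88.6-fold higher in CCl4-fib than in HSCs (log2 fold change 6.47 ± 0.69 (SE, n = 3 and 3), limma adjusted p = 0.000108) and 18.5-fold lower in NASH-fib than in CCl4-fib (-4.21 ± 0.69, adjusted p = 0.0100), and both calls held in all 21 alternatives. NASH-fib against HSCs gave 2.26 ± 0.69 (95% interval 0.74 to 3.78, limma adjusted p = 0.0574), which was not called. That difference was called with NASH-fib replicate 1 left out (3.10, adjusted p = 0.00229), and also by edgeR's quasi-likelihood test on the recovered reads (2.65, adjusted p = 0.0231) and DESeq2 (2.65, adjusted p = 0.000602). It was called in 6 of the 21 alternatives, and in 1 of the 9 with a library left out. Over the 21 it ran from 1.66 to 3.10, with limma adjusted p up to 0.458. The counting was run with a limit of 3 reads per position, and Gpx3 had 4.21 and 4.66 reads per exonic base in CCl4-fib replicates 1 and 2. Averages over 3 can only arise if the limit holds for each strand or otherwise less strictly than per base, and whether it lowered the high values was not tested.

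Gpx7 encodes a peroxidase of the endoplasmic reticulum that lacks selenocysteine and passes oxidizing equivalents to protein disulfide isomerase (NM_024198, chr4:108400217-108406713, minus strand, 1209 bases). The HSC libraries had values of 71.3, 40.8 and 28.7, those of CCl4-fib 640, 737 and 468, and those of NASH-fib 92.4, 69.5 and 41.3. The CCl4-fib libraries stood apart from both other groups, which overlapped each other. Gpx7 was 13.5-fold higher in CCl4-fib than in HSCs (log2 fold change 3.76 ± 0.46 (SE, n = 3 and 3), limma adjusted p = 0.000256) and 9.27-fold lower in NASH-fib than in CCl4-fib (-3.21 ± 0.46, adjusted p = 0.00779). The difference between NASH-fib and HSCs was 0.54 with a 95% interval of -0.48 to 1.57 (limma adjusted p = 0.591).

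Gpx8, the other peroxidase of the endoplasmic reticulum, is a membrane protein (NM_027127, chr13:113042763-113046388, minus strand, 1011 bases) and lies within Cdc20b on the opposite strand, with which it shares 0 exon bases. HSCs had values of 1218, 2235 and 924, CCl4-fib of 2761, 2444 and 2971, and NASH-fib of 4675, 2265 and 2413. All 6 fibroblast libraries were above all HSC libraries, though HSC replicate 2 came within reach of NASH-fib replicate 2. Neither difference from HSCs passed, with log2 fold changes of 0.997 ± 0.41 (95% interval 0.09 to 1.91, limma adjusted p = 0.0965) for CCl4-fib and 1.11 ± 0.41 (0.20 to 2.02, adjusted p = 0.121) for NASH-fib, and both passed with HSC replicate 2 left out (1.36, adjusted p = 0.0346, and 1.47, adjusted p = 0.0387). NASH-fib and CCl4-fib differed by 0.12 with an interval of -0.79 to 1.03 (limma adjusted p = 0.871). Gpx8 had 3.08 to 3.44 reads per exonic base in CCl4-fib replicates 1 and 3 and NASH-fib replicate 1.

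Gpx1, the abundant cytosolic glutathione peroxidase and also a selenoprotein (NM_008160, chr9:108339080-108340344, plus strand, 1043 bases), did not separate the groups. The values were 620, 961 and 1834 (HSC), 1172, 1825 and 965 (CCl4-fib) and 472, 849 and 1169 (NASH-fib), and all 3 groups overlapped. The log2 fold changes were 0.31 for CCl4-fib and -0.41 for NASH-fib against HSCs and -0.71 for NASH-fib against CCl4-fib, with limma adjusted p of 0.661, 0.737 and 0.355. The intervals reached from -0.76 to 1.37, from -1.47 to 0.66 and from -1.78 to 0.35.

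The glutathione peroxidase mRNA of the libraries differed in make-up between the groups, described here per kilobase of exon so that genes of unequal length can be set side by side. The summed value per kilobase of Gpx1 to Gpx8 was 1914 to 3229 in HSCs, 6726 to 10458 in CCl4-fib and 3635 to 5212 in NASH-fib, with no overlap between the groups. Gpx8 held 30.0% to 68.5% of the sum in HSCs and 61.6% to 88.7% in NASH-fib, but 23.1% to 43.7% in CCl4-fib. Gpx3 held 1.05% to 1.12% in HSCs, 20.5% to 37.9% in CCl4-fib and 0.846% to 9.09% in NASH-fib. Gpx4, the selenoprotein that reduces phospholipid hydroperoxides, also had a larger share in CCl4-fib, at 16.0% to 19.2% against 0.853% to 10.3% in HSCs and 0.234% to 4.78% in NASH-fib. Gpx7 held 5.53% to 5.83% in CCl4-fib and at most 3.08% in any other library, and Gpx2, Gpx5 and Gpx6 together were at or near 0. These shares are descriptions, and no test was run on them. Gpx3 and Gpx8 had over 3 reads per exonic base in some libraries. Whether the counting limit of 3 reads per position lowered their shares was not tested.

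**Figure D3:**
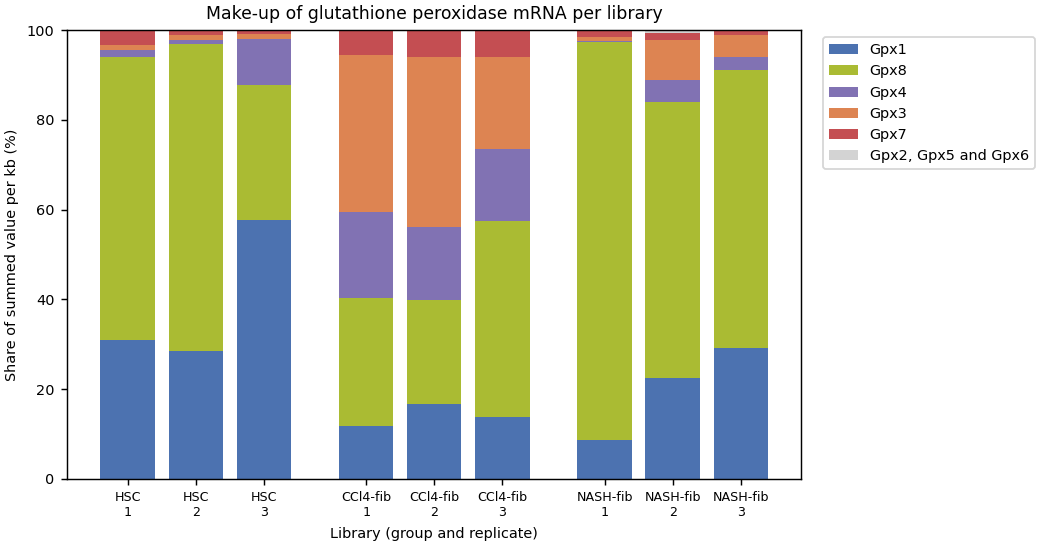
Share of each glutathione peroxidase gene in the summed value per kilobase of the family (%), 1 stacked bar per library. Gpx1 and Gpx8 fill most of the HSC and NASH-fib bars, and in the CCl4-fib bars Gpx3 (20.5% to 37.9%) and Gpx4 (16.0% to 19.2%) take a larger part.

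Mt1 and Mt2 encode the metallothioneins that most tissues express, and they are neighbours on chromosome 8. Mt2 (NM_008630, chr8:94172618-94173567, plus strand, 551 bases) ends 5521 bases before Mt1 starts (NM_013602, chr8:94179089-94180327, plus strand, 537 bases), and the longest stretch their transcripts share is 20 bases. For Mt1 the HSC libraries had values of 133, 182 and 456, CCl4-fib had 1697, 1616 and 1764, and NASH-fib had 68.0, 460 and 328. All CCl4-fib libraries were within a narrow band above the rest, whereas HSCs and NASH-fib overlapped and spread widely, with HSC replicate 3 high and NASH-fib replicate 1 the lowest of all. The log2 fold change of Mt1 was 2.92 ± 0.67 (SE, n = 3 and 3, limma adjusted p = 0.00903) in CCl4-fib against HSCs, a 7.56-fold difference, and -2.95 ± 0.67 (adjusted p = 0.0244) in NASH-fib against CCl4-fib. Mt1 had 3.44 to 3.98 reads per exonic base in CCl4-fib.

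The difference of Mt1 between NASH-fib and CCl4-fib ranged from -3.49 to -2.12 over all alternatives but missed the threshold without CCl4-fib replicate 1 (-2.95, limma adjusted p = 0.0771), replicate 2 (-2.98, adjusted p = 0.0928) or replicate 3 (-2.92, adjusted p = 0.0699) and without NASH-fib replicate 3 (-3.25, adjusted p = 0.0571). NASH-fib and HSCs differed in Mt1 by -0.03 with a 95% interval of -1.52 to 1.46 (limma adjusted p = 0.992), an interval wide enough to hold changes past the threshold in both directions.

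Mt2 had the same order of group means with lower values, at 63.1, 48.0 and 289 (HSC), 858, 673 and 800 (CCl4-fib) and 35.3, 457 and 307 (NASH-fib). CCl4-fib was again apart from both groups, and the HSC and NASH-fib libraries overlapped. CCl4-fib against HSCs gave a log2 fold change of 3.00 ± 0.90 (SE, n = 3 and 3, limma adjusted p = 0.0320). The call was lost without HSC replicate 1 (2.70, adjusted p = 0.105) or replicate 2 (2.50, adjusted p = 0.103), without CCl4-fib replicate 1 (2.92, adjusted p = 0.0951), replicate 2 (3.10, adjusted p = 0.0789) or replicate 3 (2.97, adjusted p = 0.0827), in edgeR's quasi-likelihood test (2.43, adjusted p = 0.0527) and with the date as a term (2.25, adjusted p = 0.0936). NASH-fib against CCl4-fib gave -2.17 ± 0.90 (limma adjusted p = 0.144) and NASH-fib against HSCs 0.83 ± 0.90 (adjusted p = 0.704), neither of which was called. Of the exon bases of Mt2, 432 are shared with the antisense gene Gm45774, and since reads of either strand were counted, the 2 cannot be told apart.

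The value of Mt1 was 1.57 to 3.79 times that of Mt2 in HSCs and 1.98 to 2.40 times in CCl4-fib, but 1.92 times in NASH-fib replicate 1 and 1.01 and 1.07 times in replicates 2 and 3. Over the 9 libraries log2(value + 1) of both genes had a Pearson correlation of 0.946, a description of libraries that fall into 3 groups. HSC replicate 3, the highest HSC library for both genes, was also the highest for hepatocyte markers (70402) and macrophage markers (18636), and CCl4-fib, where both genes were highest, was the lowest group for these markers. Mt3 and Mt4, the tissue-restricted metallothioneins, were listed at 0 in nearly all libraries. Per kilobase the family summed to 363 to 1373 in HSCs, 4232 to 4736 in CCl4-fib and 191 to 1685 in NASH-fib. Mt1 was over 3 reads per exonic base in every CCl4-fib library. Whether the counting limit lowered its value, the ratio or the sum there was not tested.

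**Figure D4:**
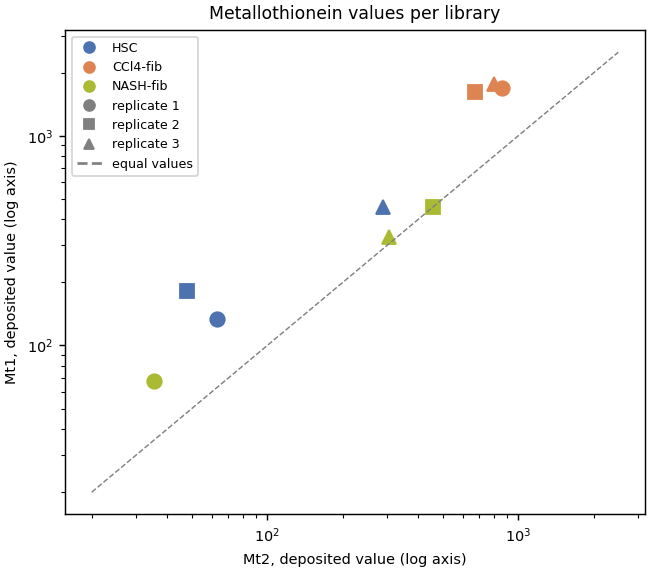
Value of Mt1 against that of Mt2 (both log axes), 1 point per library, colour by group and shape by replicate, with a dashed line of equal values. The 3 CCl4-fib libraries lie together at the upper right, and NASH-fib replicates 2 and 3 lie near the line, at ratios of 1.01 and 1.07.

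Length of the transcripts moved with these comparisons. Among the 1082 tested genes with under 1000 exonic bases, which include Mt1 and Mt2, the median log2 fold change was 0.63 in CCl4-fib against HSCs and -0.44 in NASH-fib against CCl4-fib, while among the 3968 genes of 4000 bases or more it was -0.15 and 0.20. NASH-fib against HSCs gave 0.07 and -0.05 for the same classes. Gpx1, Gpx3, Gpx7, Gpx8, Hmox1 and Nqo1 are among the 3115 tested genes from 1000 to under 2000 bases. The medians of that class were 0.52 in CCl4-fib against HSCs, -0.02 in NASH-fib against HSCs and -0.45 in NASH-fib against CCl4-fib. After a correction for GC content and length, chosen after seeing the data, CCl4-fib against HSCs still called Gpx3 (5.30), Gpx7 (2.59), Mt1 (1.98), Mt2 (1.64), Sod3 and Gclc, now with Hmox1 as well (-1.55, limma adjusted p = 0.0192). In NASH-fib against HSCs, Gpx3 was called after it (2.14, limma adjusted p = 0.0142) beside Hmox1 and Sod3. In NASH-fib against CCl4-fib, Gpx3 (-3.16, adjusted p = 0.00631) and Mt1 (-2.29, adjusted p = 0.00904) were called by limma after the correction, and Gpx7 (-2.18, adjusted p = 0.0671) and Gclc (1.93, adjusted p = 0.0528) were not.

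Sod3 encodes the extracellular superoxide dismutase, a secreted copper and zinc enzyme that binds heparan sulfate in the matrix (NM_011435, chr5:52363804-52369738, plus strand, 2041 bases). HSCs had values of 3067, 1490 and 2026, CCl4-fib of 588, 366 and 279, and NASH-fib of 443, 1155 and 616. All HSC libraries were above all fibroblast libraries, and the fibroblast groups overlapped. Sod3 was 5.35-fold lower in CCl4-fib than in HSCs (log2 fold change -2.42 ± 0.45 (SE, n = 3 and 3), limma adjusted p = 0.00294), a call that held in all 21 alternatives, and 3.08-fold lower in NASH-fib than in HSCs (-1.62 ± 0.45, adjusted p = 0.0402). NASH-fib and CCl4-fib differed by 0.80 ± 0.45 (interval -0.21 to 1.80, limma adjusted p = 0.272).

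The call of Sod3 in NASH-fib against HSCs held in 11 of 21 alternatives. It was lost without HSC replicate 1 (-1.35, limma adjusted p = 0.159) or replicate 3 (-1.65, adjusted p = 0.0861), without CCl4-fib replicate 2 (-1.62, adjusted p = 0.0685) or replicate 3 (-1.62, adjusted p = 0.0529) and without NASH-fib replicate 1 (-1.31, adjusted p = 0.0864) or replicate 3 (-1.55, adjusted p = 0.123), and also in edgeR's quasi-likelihood test (-1.54, adjusted p = 0.0518), in a fit of the 2 groups alone (-1.62, adjusted p = 0.0848), with a replicate block (-1.62, adjusted p = 0.0782) and with the date as a term (-1.37, adjusted p = 0.407). Of the superoxide dismutase mRNA per kilobase, Sod3 held 17.7% to 49.4% in HSCs, 3.87% to 6.14% in CCl4-fib and 10.3% to 31.0% in NASH-fib. Sod1, the cytosolic enzyme, held 45.2% to 75.2%, 90.7% to 93.6% and 61.4% to 77.2%.

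Hmox1 encodes heme oxygenase 1, the inducible enzyme that splits heme into biliverdin, iron and carbon monoxide and that macrophages express strongly (NM_010442, chr8:75093618-75100593, plus strand, 1569 bases). The HSC libraries had values of 484, 431 and 959, the CCl4-fib libraries 267, 357 and 409, and the NASH-fib libraries 25.8, 153 and 180. The 3 groups did not overlap, with HSCs the highest and NASH-fib the lowest. Hmox1 was 6.45-fold lower in NASH-fib than in HSCs (log2 fold change -2.69 ± 0.66 (SE, n = 3 and 3), limma adjusted p = 0.0219). The differences of CCl4-fib from HSCs (-0.78 ± 0.66, limma adjusted p = 0.399) and of NASH-fib from CCl4-fib (-1.91 ± 0.66, interval -3.37 to -0.44, adjusted p = 0.0920) were not called. The call in NASH-fib was lost without HSC replicate 1 (-2.83, adjusted p = 0.0572) or HSC replicate 3 (-2.33, adjusted p = 0.0802) and in a limma fit of the 2 groups alone (-2.69, adjusted p = 0.0691).

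Macrophage markers moved with part of this order. HSC replicate 3 had the highest value of Hmox1 and the highest macrophage marker sum (18636, against 5402 and 7043 in HSC replicates 1 and 2). CCl4-fib had a lower macrophage marker sum (482 to 956) than NASH-fib (3062 to 6711) and higher values of Hmox1.

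Nqo1 encodes NAD(P)H quinone dehydrogenase 1, which reduces quinones by transfer of 2 electrons and is a standard readout of NRF2 (NM_008706, chr8:107388225-107403205, minus strand, 1544 bases). Its values were 290, 189 and 178 (HSC), 223, 75.7 and 84.0 (CCl4-fib) and 332, 159 and 162 (NASH-fib). Each group held 1 library well above its other two, and all groups overlapped. No difference was called, at log2 fold changes of -0.92 (95% interval -2.03 to 0.18, limma adjusted p = 0.193) in CCl4-fib against HSCs, -0.07 (-1.17 to 1.04, adjusted p = 0.976) in NASH-fib against HSCs and 0.86 (-0.25 to 1.96, adjusted p = 0.283) in NASH-fib against CCl4-fib.

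Gclc encodes the catalytic subunit of glutamate-cysteine ligase (NM_010295, chr9:77754535-77794489, plus strand, 3409 bases). HSC libraries had values of 178, 673 and 330, CCl4-fib libraries 94.5, 37.4 and 69.7, and NASH-fib libraries 394, 161 and 296. CCl4-fib was below both other groups, which overlapped. Gclc was 5.36-fold lower in CCl4-fib than in HSCs (log2 fold change -2.42 ± 0.56 (SE, n = 3 and 3), limma adjusted p = 0.00952), a call that held in all 21 alternatives, and 4.19-fold higher in NASH-fib than in CCl4-fib (2.07 ± 0.56, adjusted p = 0.0428). NASH-fib and HSCs differed by -0.36 with an interval of -1.60 to 0.89 (limma adjusted p = 0.823).

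The call of Gclc in NASH-fib against CCl4-fib held in 12 of 21 alternatives. It was lost without HSC replicate 3 (2.07, limma adjusted p = 0.0538), without CCl4-fib replicate 1 (2.36, adjusted p = 0.0751), replicate 2 (1.70, adjusted p = 0.173) or replicate 3 (2.14, adjusted p = 0.0978) and without NASH-fib replicate 1 (1.78, adjusted p = 0.112) or replicate 3 (1.99, adjusted p = 0.117), and also with a replicate block (2.07, adjusted p = 0.0833), with the date as a term (1.86, adjusted p = 0.0559) and after the correction for GC and length. Hepatocytes express Gclc, and their markers moved the same way between the fibroblast groups (2482 to 3754 in CCl4-fib, 8738 to 37702 in NASH-fib), with 9 of the 15 called higher and none lower. In NASH-fib replicate 2, which had the lowest sum of these markers in its group, Gclc was also lowest in its group (161). Both this value and the marker sum (8738) were above those of every CCl4-fib library. NASH-fib replicates 1 and 3 had marker sums of 37056 and 37702, with Gclc at 394 and 296. In HSC replicates 1 to 3 the marker sums were 32333, 38897 and 70402, and Gclc was 178, 673 and 330. The part of hepatocyte RNA in the values of Gclc was not tested.

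Gclm, the modifier subunit of the same ligase, was called lower in CCl4-fib than in HSCs as well. Its values were 152, 278 and 147 (HSC), 56.4, 51.9 and 43.9 (CCl4-fib) and 148, 73.9 and 139 (NASH-fib), with CCl4-fib below all other libraries. Its log2 fold change was -1.85 in CCl4-fib against HSCs (limma adjusted p = 0.00948). The 2 subunits together summed to 126 to 332 per kilobase in HSCs, 36.1 to 55.0 in CCl4-fib and 83.1 to 187 in NASH-fib.

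Per kilobase, the order of the mean levels differed between the groups. In HSCs, Gpx8 (1443 ± 680, SD, n = 3), Gpx1 (1091 ± 600) and Sod3 (1075 ± 393) had the highest levels and Gpx3 (30.0 ± 8.55) the lowest. In CCl4-fib the order was Mt1 (3151 ± 138), Gpx3 (2894 ± 1349) and Gpx8 (2696 ± 262), then Mt2 (1410 ± 172), with Gclc lowest (19.7 ± 8.39). Mt1, Gpx3 and Gpx8 each had CCl4-fib libraries with over 3 reads per exonic base, as Gpx8 had in NASH-fib replicate 1. Whether the counting limit of 3 reads per position lowered these levels or set their order was not tested. In NASH-fib, Gpx8 (3084 ± 1336) led, followed by Gpx1 (795 ± 334), Mt1 (531 ± 371) and Mt2 (483 ± 388), and Gpx7 was lowest (56.0 ± 21.2). Neighbours in that order among the first 3 genes of HSCs and of CCl4-fib, and among Gpx1, Mt1 and Mt2 in NASH-fib, differed by less than the larger of their SDs. NASH-fib replicate 1 stood out within its group, being the lowest of its 3 libraries for Gpx1, Gpx3, Mt1, Mt2, Hmox1 and Sod3 and the highest for Gpx7, Gpx8, Nqo1 and Gclc. It had the fewest reads of its group (3289758), as did HSC replicate 2 (3071070), which shares its date label. CCl4-fib replicate 1 shares the label too and had 5634273. Over all genes tested, NASH-fib replicate 1 correlated at 0.793 with HSC replicate 2, and at 0.768 and 0.815 with NASH-fib replicates 2 and 3. Whether depth shaped its values was not tested.

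Across the 9 libraries, the genes with the pattern nearest to each of the 10 by Pearson's correlation of log2(value + 1) were found among all genes tested, as a description of libraries that share groups. The nearest to Gpx3 were Fchsd1 (0.998), Chst12 (0.993) and Mdk (0.993), to Mt1 Znhit1 (0.999), to Mt2 Sept1 (0.995), to Gpx7 Get4 (0.979) and to Gpx8 Casp4 (0.988). Those of Sod3 (Ifitm1, 0.992), Hmox1 (Ubn1, 0.978) and Gclc (Acot12, 0.975) were similarly close, and Gpx1 (Zfp24, 0.925) and Nqo1 (Efcab2, 0.926) had the least close neighbours. Among the 10 themselves the strongest relations were Mt1 with Mt2 (0.946), Gpx3 with Mt1 (0.888) and Gpx3 with Gpx7 (0.879), and Gclc ran against Gpx7 (-0.875).

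The other genes of the antioxidant network were described by a hand-written list of 137 genes in 10 functional groups, of which 128 were found by name and 116 were tested. Calls were made upward for 11 and downward for 13 of them in CCl4-fib against HSCs, for 5 and 2 in NASH-fib against HSCs and for 6 and 8 in NASH-fib against CCl4-fib. Over all genes tested, 27.8%, 12.5% and 10.6% were called in these comparisons, so the counts of 24 and 7 of 116 lie below the background and that of 14 of 116 lies near it. The medians were 0.01, -0.08 and -0.14. The split between higher and lower depended on the scaling: edgeR's quasi-likelihood test called 7 and 14 in CCl4-fib against HSCs, DESeq2 5 and 5 in NASH-fib against HSCs, and log2 CPM with TMM 8 and 6, edgeR 9 and 4 and DESeq2 16 and 10 in NASH-fib against CCl4-fib. The calls over all genes tested moved as well, from 58.1% upward in CCl4-fib against HSCs to 52.2% with edgeR, and from 46.7% in NASH-fib against CCl4-fib to 53.7% with TMM, 58.8% with edgeR and 56.7% with DESeq2, whereas in NASH-fib against HSCs they were 65.7% upward by limma and 65.6% by DESeq2. By edgeR the median of all genes tested was 0.00 in CCl4-fib against HSCs and 0.14 in NASH-fib against CCl4-fib, where the deposited scaling gave 0.18 and -0.11.

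**Figure D5:**
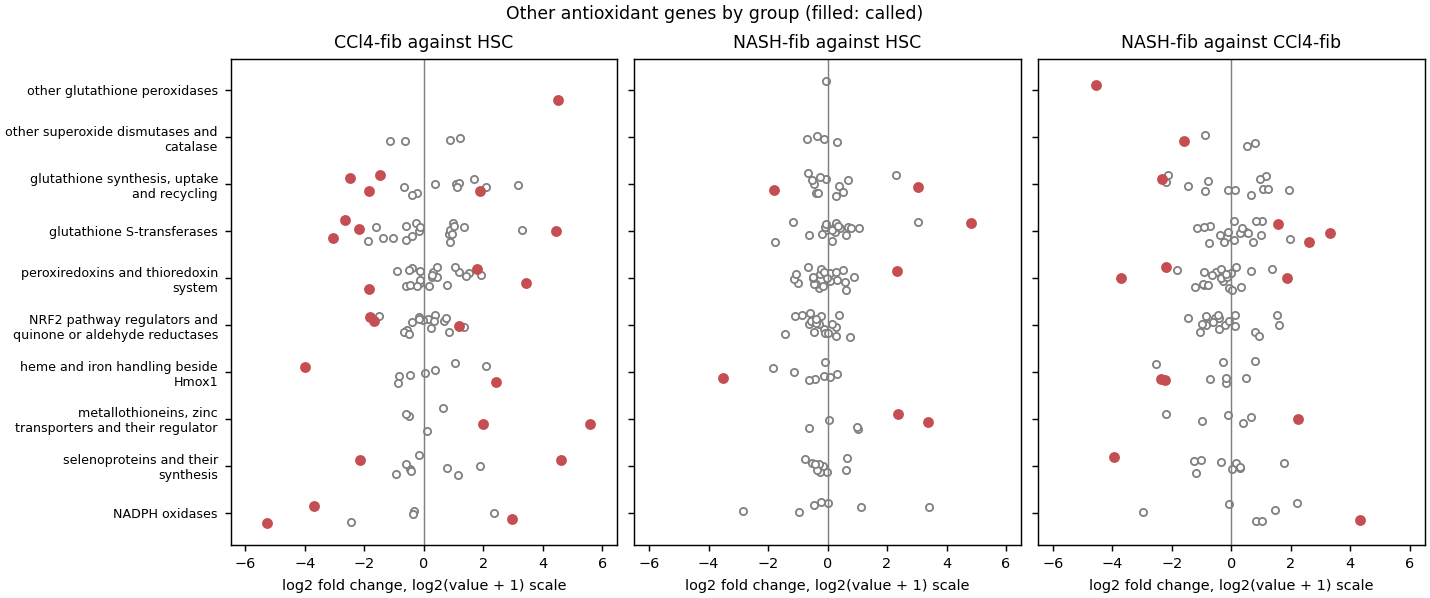
Log2 fold change, on the log2(value + 1) scale, of every other antioxidant gene tested, by functional group and in 1 panel per comparison; filled points were called. In CCl4-fib against HSCs called genes lie on both sides in 7 of the 10 functional groups, and NASH-fib against HSCs has 7 called genes in all.

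In CCl4-fib against HSCs the largest called differences included Gpx4, with values of 31.6, 27.7 and 314 (HSC), 1849, 1719 and 1082 (CCl4-fib) and 12.2, 175 and 112 (NASH-fib). CCl4-fib lay above both other groups, which overlapped. Its log2 fold change was 4.50 ± 1.05 (SE, n = 3 and 3, limma adjusted p = 0.00935), and that of NASH-fib against CCl4-fib -4.56 ± 1.05 (adjusted p = 0.0249). The second call was lost without CCl4-fib replicate 1 (-4.41, adjusted p = 0.0826), replicate 2 (-4.47, adjusted p = 0.0994) or replicate 3 (-4.80, adjusted p = 0.0595) and without NASH-fib replicate 1 (-3.42, adjusted p = 0.0514) or replicate 3 (-4.97, adjusted p = 0.0601). Selm, a selenoprotein of the endoplasmic reticulum, moved like Gpx4 (4.62 in CCl4-fib against HSCs, limma adjusted p = 0.00109, and -3.96 in NASH-fib against CCl4-fib, adjusted p = 0.0131, the latter lost without CCl4-fib replicate 2, at -3.46 and 0.0633, or NASH-fib replicate 3, at -3.87 and 0.0540).

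Mgst2, a microsomal glutathione transferase, and Slc39a4, a zinc importer, had at most 3 reads in every HSC library. Against that floor, a mean value of 3.82, Mgst2 was at least 14.7-fold higher in CCl4-fib and, in NASH-fib, at least 19.8-fold higher. For Slc39a4 these bounds were 33.0-fold and 7.82-fold. All of these were called, though Slc39a4 in NASH-fib lost its call without HSC replicate 1 (limma adjusted p = 0.117) or replicate 2 (adjusted p = 0.0591), CCl4-fib replicate 1 (adjusted p = 0.0502) and NASH-fib replicate 2 (adjusted p = 0.116) or replicate 3 (adjusted p = 0.102). That call held in 13 of 21 alternatives. It was also lost with a pseudocount of 8 (1.75, limma adjusted p = 0.0918), with only the 2 groups fitted (adjusted p = 0.0657) and with the date as a term (adjusted p = 0.258). Slc40a1, the iron exporter ferroportin, was lower in both fibroblast groups (-4.01 in CCl4-fib, adjusted p = 0.000512, and -3.50 in NASH-fib, adjusted p = 0.00179, limma).

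Slc39a8, another zinc importer (2.36, limma adjusted p = 0.0134), Glrx, a glutaredoxin (2.32, adjusted p = 0.00238), and Chac1, a glutathione-degrading enzyme (3.04, adjusted p = 0.0261), were also called higher in NASH-fib than in HSCs. Glrx had values of 195 to 241 in HSCs, 249 to 394 in CCl4-fib and 839 to 1876 in NASH-fib, so that NASH-fib stood above the rest. The call of Slc39a8 was lost without HSC replicate 1 (2.26, limma adjusted p = 0.0563) or replicate 3 (2.08, adjusted p = 0.0501), and that of Chac1, which had 1.17 to 7.28 in HSCs, without HSC replicate 1 (2.72, adjusted p = 0.0985) or replicate 3 (2.73, adjusted p = 0.0863) or any NASH-fib library (2.94 to 3.20, adjusted p = 0.0560 to 0.0777). Chac1 had only 1, 5 and 1 reads in HSC replicates 1 to 3, and its call held in 13 of 21 alternatives. It was also lost in edgeR's quasi-likelihood test (3.16, adjusted p = 0.0539), after the correction for GC and length (2.97, limma adjusted p = 0.0629) and with the date as a term (2.81, limma adjusted p = 0.335).

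Cybb, the catalytic subunit of the phagocyte NADPH oxidase, was lower in CCl4-fib than in HSCs (-5.29, limma adjusted p = 0.000251) and higher in NASH-fib than in CCl4-fib (4.32, adjusted p = 0.00811), in the order of the macrophage marker sums. Gsta3 (3.32, limma adjusted p = 0.0147) and Gstm6 (2.61, adjusted p = 0.0293), glutathione transferases that hepatocytes express, were higher in NASH-fib than in CCl4-fib. The hepatocyte marker sums had the same order in these 2 groups. In HSCs these sums were 32333 to 70402, against 8738 to 37702 in NASH-fib. The means of Gsta3 and Gstm6 were 3519 and 261 in HSCs and 4391 and 326 in NASH-fib. Both genes belong to multigene families whose reads counting can split. Both calls were lost without CCl4-fib replicate 2 (3.19, adjusted p = 0.0668, and 2.49, adjusted p = 0.116) and without NASH-fib replicate 3 (3.26, adjusted p = 0.0567, and 2.27, adjusted p = 0.101), that of Gstm6 also without CCl4-fib replicate 1 (2.64, adjusted p = 0.0850) or replicate 3 (2.71, adjusted p = 0.0699) or NASH-fib replicate 1 (2.11, adjusted p = 0.0775). Prdx5, a peroxiredoxin, was lower in NASH-fib than in CCl4-fib (-3.70, limma adjusted p = 0.0484), a call that held in 10 of 21 alternatives and was lost without HSC replicate 1 (-3.70, adjusted p = 0.0718), any CCl4-fib library (-3.74 to -3.62, adjusted p = 0.117 to 0.144) and NASH-fib replicate 1 (-2.69, adjusted p = 0.125) or replicate 3 (-4.10, adjusted p = 0.0883).

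By functional group, the 22 glutathione S-transferases had 1 called higher and 3 lower in CCl4-fib against HSCs, 1 higher in NASH-fib against HSCs and 3 higher in NASH-fib against CCl4-fib, where 27.8%, 12.5% and 10.6% of all genes tested were called in either direction. The 24 peroxiredoxins and genes of the thioredoxin system had 2 higher and 1 lower, 1 higher, and 1 higher and 2 lower in the same order, and the 14 tested genes of glutathione synthesis, uptake and recycling had 1 higher and 3 lower, 1 higher and 1 lower, and 1 lower. Of the 19 regulators of the NRF2 pathway and quinone or aldehyde reductases, Abcc1, a transporter of glutathione conjugates, was called higher (1.17, limma adjusted p = 0.0484) and Nqo2 (-1.68, adjusted p = 0.0210) and Aox1 (-1.80, adjusted p = 0.0128) lower in CCl4-fib against HSCs. Nfe2l2, which encodes NRF2, had values of 1212, 1200 and 1756 (HSC), 1502, 1891 and 1990 (CCl4-fib) and 730, 1098 and 1227 (NASH-fib). HSCs overlapped both other groups, and every CCl4-fib library was above every NASH-fib library. The log2 fold changes of Nfe2l2 were 0.38 in CCl4-fib and -0.46 in NASH-fib against HSCs and -0.84 (95% interval -1.57 to -0.11, limma adjusted p = 0.126) in NASH-fib against CCl4-fib, and none was called.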

How the data were processed

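Single-end sequencing of SMARTer-amplified RNA gave reads for 9 libraries, which the authors aligned to mm10 (STAR) and counted with HOMER over RefSeq exons, ignoring strand and with a limit of 3 reads at a position. The deposited values are a signal per gene, those counts multiplied by 1 factor per library in a normalization for DESeq2, which the header command ran on 10 libraries. Beside them the authors deposited the exonic length of each gene, and no other columns of values were left unused. Each value is a whole multiple (within 0.05) of what a read is worth, for 100% of values, so the reads were recovered. Libraries held 3071070 to 5634273 reads on genes, and 3 reads, the floor used here, are worth 2.38 to 4.37. Floors cover counting error only.

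The values are not raw counts, so limma (version 3.58.1) was run on log2(value + 1), with a trend in the prior variance, over 13651 genes kept by filterByExpr of edgeR (minimum count 10) and with Benjamini-Hochberg adjustment over all of them. Where the sentence gives an adjusted p without a tool, it is limma's. Samples were grouped by their labels, and the 3 groups were compared in pairs. The 10 genes, the lists of other genes and the markers were chosen with earlier results of these data known. Named beside the 10 genes were the 6 other antioxidant genes with the largest called change in each comparison and the 3 nearest genes by correlation, of which only the first is given for most. Gclm, Sod1, Nfe2l2, Nqo2, Aox1 and Abcc1 were named after their values were seen. The alternatives were DESeq2 (1.42.0) and edgeR's quasi-likelihood test (4.0.16) on the recovered reads, other scalings, pseudocounts and filters, 2 groups only, replicate and date terms, each library left out, and a correction for GC content and length, added after seeing the data, over the 96.5% of tested genes with a value, among them all 10 genes. Promoters came from RefSeq (GRCm38.p6). The limma fit was tested on simulated data for NASH-fib against HSCs only.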

Additional observations from a re-analysis of the deposited data

How the results depend on the processing

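The number of the 10 genes called was 6 in CCl4-fib against HSCs and 5 to 7 under the alternatives (5 to 6 with a library left out). In NASH-fib against HSCs it was 2, and 0 with only the 2 groups fitted (limma, 3 of the 10 at an unadjusted p under 0.05), 1 with a replicate block, 1 with the date as a term and 0 to 3 with a library left out, 0 without HSC replicate 1 or 3, where edgeR called 2 and DESeq2 3 on all libraries. In NASH-fib against CCl4-fib it was 4, and 2 once GC content and length were corrected for and 2 to 4 with a library left out. For the other antioxidant genes the count of 7 in NASH-fib against HSCs was 4 with the date as a term and 4 to 8 with a library left out, that of 24 in CCl4-fib against HSCs was 15 and 13 to 34, and that of 14 in NASH-fib against CCl4-fib was 26 with DESeq2, 6 with the date and 1 to 17 with a library left out, 1 without CCl4-fib replicate 2 or NASH-fib replicate 3. The cause was not tested. The replicate numbers did not pair the libraries: of 9 same-numbered pairs 1 correlated over 0.1 (-0.47 to 0.51), and 1 library correlated best with its own number. Of 6 pairs that share a date label 1 correlated over 0.1, HSC replicate 2 with NASH-fib replicate 1 (0.645). The replicate block gave 1, 6 and 3 calls among the 10 genes and 8, 23 and 11 among the others, in NASH-fib against HSCs, CCl4-fib against HSCs and NASH-fib against CCl4-fib.

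Sign changes occurred only in differences that were not called. In NASH-fib against HSCs, Mt1 became 0.16 with DESeq2, 0.16 with edgeR and 0.033 with TMM, Mt2 -0.11 with the date, and Nqo1 0.11 with DESeq2, 0.10 with edgeR, 0.00184 with TMM and 0.44 with the date. With a library left out, Mt1 ran from -0.57 to 0.80, Nqo1 from -0.41 to 0.15, Gpx1 from -0.77 to 0.0088 and Gclc from -0.82 to 0.13. Gpx1 in CCl4-fib against HSCs became -0.058 with the date and -1.01 after the GC and length correction, and ran from -0.060 to 0.72 with a library left out. In NASH-fib against CCl4-fib the correction gave 0.50 for Gpx1 and -0.070 for Gpx8, and Gpx8 ran from -0.22 to 0.31 with a library left out. With 3 pools per group, the SE of a log2 fold change was smallest for Gpx8 (0.41) and largest for Mt2 (0.90).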
